A study of Solanum pimpinellifolium with 72 samples.

Results

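The FRUITFULL-like and SOC1-type MADS-box genes of tomato were followed through early flower development in lines that differ in the CLAVATA-WUSCHEL pathway. They were chosen by identifier, as 5 of the 34727 genes in the expression table: MBP20 (Solyc02g089210), FUL1 (Solyc06g069430), FUL2 (Solyc03g114830), MBP10 (Solyc02g065730) and AGL20 (Solyc01g092950), a homolog of Arabidopsis SOC1. The choice by family uses no threshold on these data, though earlier results of the series were known when it was made. The authors had already listed AGL20 among the differentially expressed genes of a separate set of libraries, which is not used here. They also described MBP20 as upregulated in the mutants, without naming the libraries at that point. Counts of calls over the 5 genes therefore include members with an earlier report. All 5 passed the filter on low values.

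MADS-box proteins of the FRUITFULL group and of the SOC1 group are transcription factors that promote the switch from leaf production to flowering. In Arabidopsis, SOC1 gathers the flowering signals in the shoot apex and FRUITFULL acts beside it in the inflorescence meristem and later in the fruit wall. Tomato carries several FRUITFULL-like genes: FUL1 and FUL2 take part in fruit ripening, and FUL2 and MBP20 also act in flowering and in the inflorescence, while less is known of MBP10.

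Whole mRNA was sequenced from dissected tissue of the wild relative Solanum pimpinellifolium LA1589. The 6 genotypes were RNAi-SlCLV3, lc/fas, fas, lc, HC2 and the wild type (WT). In RNAi-SlCLV3 a hairpin made from a piece of SlCLV3 runs under the 35S promoter, which is active in most tissues, so its knockdown is not confined to the meristem. The lc allele is a pair of SNPs downstream of SlWUS. The fas allele is an inverted segment that breaks the promoter of SlCLV3 and the first intron of SlYABBY2b. Both came from cultivated tomato through repeated backcrossing, and lc/fas carries both. HC2 is a fas plant given a genomic copy of SlCLV3, so it shares the fas inversion. Each genotype was sampled at an early stage (inflorescence and floral meristems with the youngest buds) and as older buds, 4dpi and 6dpi, counted in days after a flower is initiated. With 4 replicates each this gave 72 libraries in 18 groups. Tissue of a genotype was gathered weekly from a small set of plants, so replicates may share plants and p-values measure only the spread between these libraries, which may be partly technical. The sources used here do not say which independent transformant of a construct was sampled.

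Levels are given in RPKM (reads per kilobase of gene, scaled to the mapped reads of the library), for a group as the mean ± SD of its 4 libraries. A change or difference is one of log2(RPKM + 1), fitted by limma with its standard error (SE) over all 20577 genes tested and called at a Benjamini-Hochberg adjusted p below 0.05. The pseudocount of 1 understates the changes of low genes such as MBP10. Reads in genes ran from 2920000 to 58300000 a library (median 19000000), and 7 of the 72 libraries held fewer than 10000000. The reads behind a single value ran from 137 to 2521 for MBP20, from 202 to 3060 for FUL1, from 173 to 2016 for FUL2, from 36 to 841 for AGL20 and from 9 to 462 for MBP10. SlCLV3 itself stood at 2.24 to 4.60 RPKM in RNAi-SlCLV3 at the early stage, against 4.66 to 10.5 RPKM in WT, and transcripts of the hairpin can add to the values of the line. The markers followed the labelled stages. The summed RPKM of 3 primordium markers (TAP3, TPI and TAG1) was 1.53 to 29.7 in the early libraries, 101 to 305 at 4dpi and 289 to 505 at 6dpi. Early libraries reached 29.7 in HC2, 25.2 in lc, 12.5 in lc/fas and 12.2 in fas, against 5.69 in WT and 5.58 in RNAi-SlCLV3. Each line overlapped WT, and the part of bud age in early differences between lines was not tested. A pair of tapetum markers summed to at most 0.584 RPKM in any library.

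All 5 genes were on in every library. FUL2 ranged from 16.2 to 64.2 RPKM, MBP20 from 13.9 to 117, FUL1 from 14.9 to 44.3, AGL20 from 8.60 to 37.7 and MBP10 from 1.83 to 18.02. MBP20, FUL1, FUL2 and AGL20 were highest at the early stage in nearly every genotype, whereas MBP10 was lowest there. The exception was AGL20 in lc, at 16.6 ± 7.39 RPKM at 4dpi and 14.02 ± 1.29 RPKM at the early stage. When the 18 groups were ranked by mean, each of the 17 neighbouring pairs overlapped in their libraries for every one of the 5 genes, so no 2 neighbours in those orders were apart beyond their spread. MBP20 and AGL20 shared the top of their orders: RNAi-SlCLV3 early, lc/fas early and fas early. FUL1 and FUL2 had RNAi-SlCLV3 sixth, the last of the early groups.

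**Figure D1:**
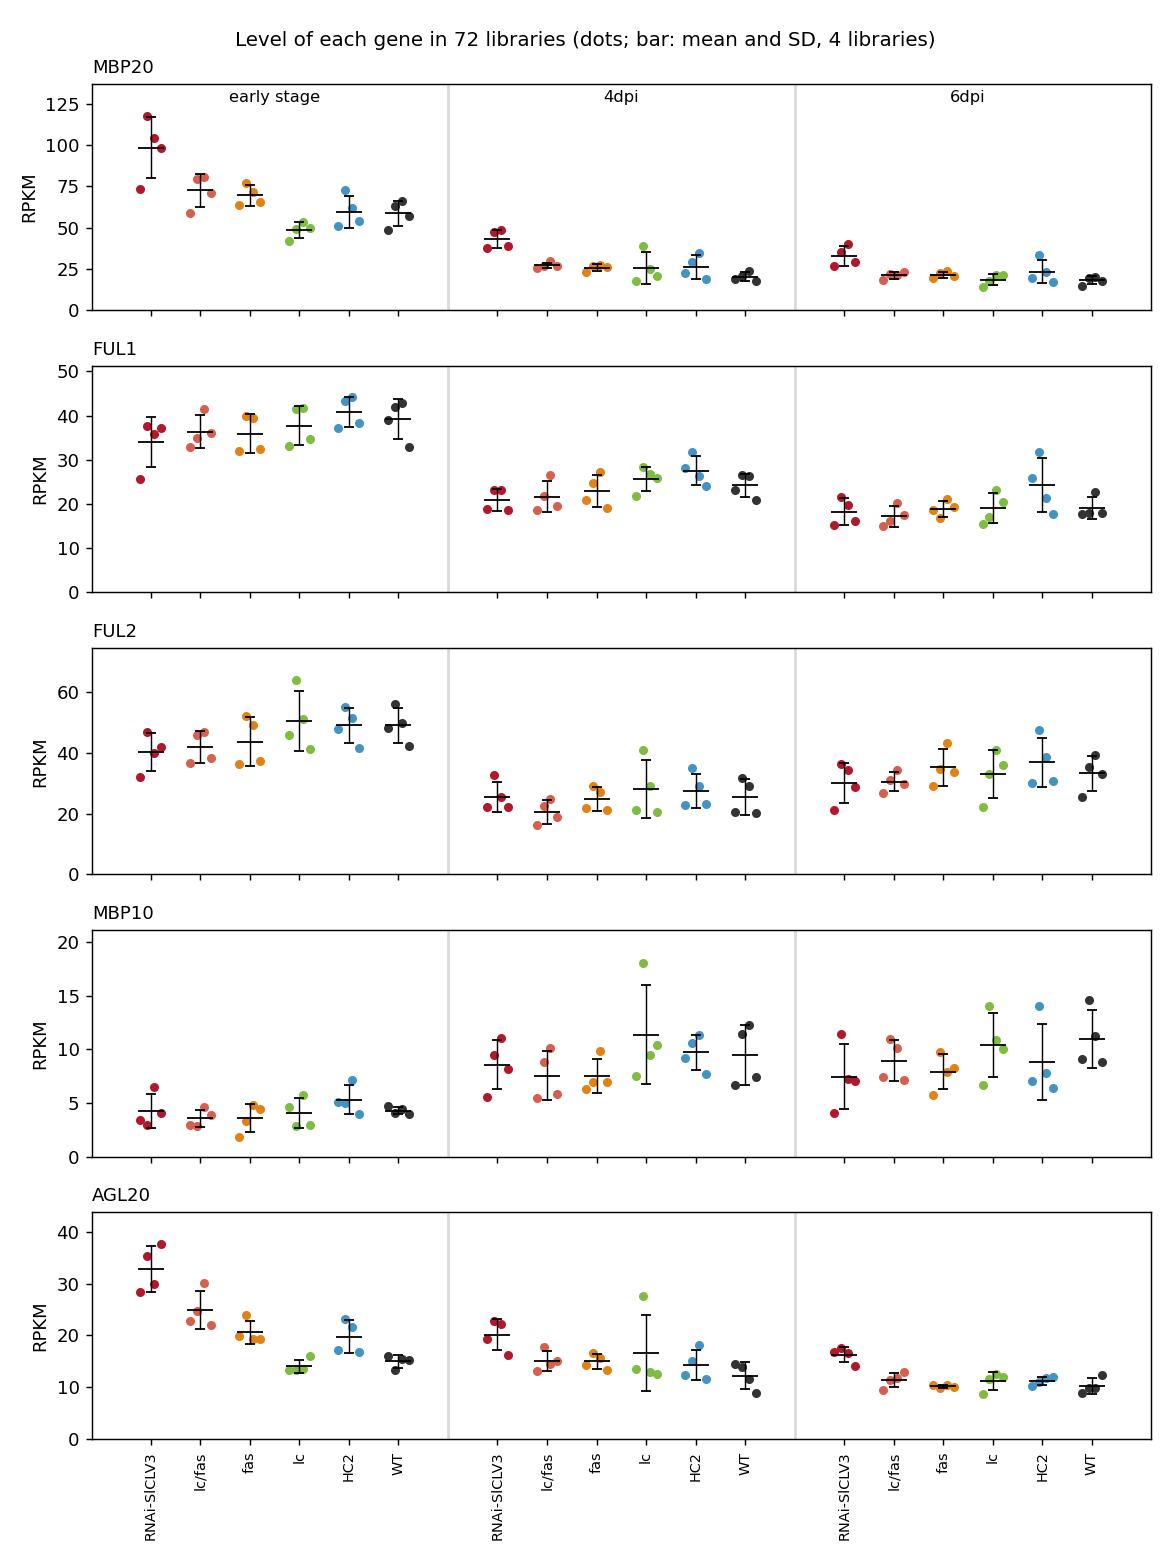
RPKM of MBP20, FUL1, FUL2, MBP10 and AGL20 in all 72 libraries, grouped by stage and then by genotype (RNAi-SlCLV3, lc/fas, fas, lc, HC2, WT from left to right); dots are libraries in order of replicate number and bars are the mean and SD of 4. MBP20 and AGL20 were highest in RNAi-SlCLV3 at each stage, while MBP10 was lowest at the early stage in each genotype.

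MBP20, a FRUITFULL-like factor of the inflorescence, rose in RNAi-SlCLV3 at each stage. At the early stage it had 73.4, 117, 104 and 98.3 RPKM in RNAi-SlCLV3, against 48.7, 62.8, 66.1 and 57.2 RPKM in WT (replicates 1 to 4). Replicate 1 was the lowest in both genotypes, and even that RNAi-SlCLV3 library lay above every WT library. The log2 change was 0.72 (SE 0.17, adjusted p = 0.0040), or 1.67 times the WT mean. It lost the call when only the 2 groups compared entered the fit (adjusted p = 0.059; range over the alternatives 6.1e-06 to 0.059).

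Later buds kept the difference in MBP20. At 4dpi RNAi-SlCLV3 had 37.3, 47.5, 48.4 and 39.0 RPKM, against 18.6, 20.4, 23.8 and 17.7 RPKM in WT, 2.14 times the WT mean (log2 change 1.06, SE 0.17, adjusted p = 1.2e-05). At 6dpi it had 26.6, 35.1, 40.0 and 29.2 RPKM in RNAi-SlCLV3, against 14.8, 19.6, 20.2 and 17.9 RPKM in WT (log2 change 0.81, SE 0.17, adjusted p = 0.0023). The groups were apart at both stages.

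MBP20 in lc/fas and fas lay between WT and RNAi-SlCLV3 in its mean at each stage. In lc/fas it had 59.0, 79.4, 80.9 and 70.7 RPKM at the early stage, 25.3, 26.8, 29.5 and 26.6 RPKM at 4dpi and 18.01, 21.7, 21.6 and 23.1 RPKM at 6dpi. Only the 4dpi libraries lay wholly above WT, but each of the 12 lc/fas libraries exceeded the WT library of the same stage and number. Counts of same-numbered pairs, here and below, are descriptive, since pairs of one number may not be independent across stages. The difference over the stages was 0.31 (SE 0.10, 95% interval 0.11 to 0.51) and did not pass (adjusted p = 0.149). It passed with only the 2 genotypes in the fit (adjusted p = 0.027) and with a replicate block (range over the alternatives 0.0028 to 0.85).

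The fas line, which carries the inversion without lc, had MBP20 at 63.5, 77.0, 71.5 and 65.7 RPKM at the early stage, 22.9, 26.7, 27.4 and 26.2 RPKM at 4dpi and 19.3, 22.3, 23.5 and 20.6 RPKM at 6dpi. Its libraries overlapped WT at each stage, and again 12 of 12 exceeded the WT library with the same stage and number. The 12 pairs were not independent, since libraries of one number correlated across stages as well. The difference over the stages was 0.28 (SE 0.10, adjusted p = 0.47 over all genes). Same-numbered libraries of fas and WT deviated together, and with the replicate number as a block the adjusted p was 0.044 (range over the alternatives 0.044 to 1.00).

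Neither lc alone nor, in the fit without a replicate block, HC2 passed for MBP20. In lc it averaged 48.5 ± 4.70 RPKM at the early stage, 25.4 ± 9.58 at 4dpi and 18.5 ± 3.51 at 6dpi, against 58.7 ± 7.62, 20.1 ± 2.69 and 18.1 ± 2.42 RPKM in WT. 5 of 12 lc libraries exceeded their WT counterpart, and the difference over the stages was 0.01 (95% interval -0.19 to 0.20). That mean joins opposite signs: at the early stage 0 of 4 lc libraries exceeded their WT counterpart (-0.27), and at 4dpi 3 of 4 did (0.27), where replicate 2 held 39.1 RPKM beside 17.5 to 24.8 RPKM in the rest. HC2 stood at 59.7 ± 9.76, 26.1 ± 7.09 and 23.3 ± 7.11 RPKM at the 3 stages, with a difference from WT of 0.22 (95% interval 0.02 to 0.42, adjusted p = 0.17). That difference passed with a replicate block (range over the alternatives 0.019 to 0.535). Set against fas, HC2 differed by -0.06 in MBP20 (95% interval -0.25 to 0.14), and its mean was below that of fas at the early stage and not at 4dpi or 6dpi.

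AGL20, the SOC1 homolog, followed MBP20 in the hairpin line but differed more widely among the early groups. At the early stage it had 28.3, 35.3, 30.03 and 37.7 RPKM in RNAi-SlCLV3, against 16.0, 13.2, 15.5 and 15.3 RPKM in WT. The 2 groups were far apart, with 2.19 times the WT mean (log2 change 1.07, SE 0.15, adjusted p = 4.0e-07). Leaving out any single library did not end this call.

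In later buds of the hairpin line AGL20 stayed above WT. At 4dpi it had 19.3, 22.8, 22.2 and 16.3 RPKM in RNAi-SlCLV3, against 14.4, 13.99, 11.7 and 8.78 RPKM in WT (log2 change 0.69, SE 0.15, adjusted p = 0.0023). At 6dpi it had 16.8, 17.5, 16.6 and 14.1 RPKM in RNAi-SlCLV3, against 8.95, 9.85, 9.74 and 12.4 RPKM in WT (log2 change 0.62, SE 0.15, adjusted p = 0.013). No library of the 2 genotypes overlapped at either stage. The 4dpi call was lost with only the 2 groups in the fit (adjusted p = 0.094; range over the alternatives 0.00057 to 0.094). The 6dpi call was lost without WT replicate 1 (0.076), WT replicate 3 (0.056), RNAi-SlCLV3 replicate 2 (0.063) or the libraries under 10000000 reads (adjusted p = 0.054; range 0.0040 to 0.076).

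The early levels of AGL20 also stood above WT in lc/fas, fas and HC2. lc/fas had 22.8, 24.8, 30.2 and 22.1 RPKM and fas had 19.9, 23.9, 19.3 and 19.4 RPKM. HC2 had 17.2, 23.2, 21.7 and 16.8 RPKM. Each of these 12 libraries exceeded the highest WT library, at 16.0 RPKM, and the ratios to the WT mean were 1.66, 1.37 and 1.31; this within-stage difference was not tested. lc had 13.3, 13.3, 13.5 and 15.9 RPKM and overlapped WT.

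By 6dpi AGL20 in these lines was close to WT: 11.4 ± 1.41 RPKM in lc/fas, 10.2 ± 0.305 in fas, 11.2 ± 1.75 in lc and 11.2 ± 0.794 in HC2, against 10.2 ± 1.51 RPKM in WT. Over the 3 stages AGL20 rose in lc/fas by 0.38 (SE 0.09, adjusted p = 0.0091; 11 of 12 libraries above the WT library with their stage and number). This call was lost without replicate number 3 (adjusted p = 0.26), without number 4 (0.070) and when the stages of a number were averaged first (0.077), with a range over the alternatives of 0.0025 to 0.26. The differences in fas (0.24, SE 0.09, adjusted p = 0.49) and HC2 (0.23, SE 0.09, adjusted p = 0.089) did not pass, nor did that in lc (0.13, SE 0.09, adjusted p = 1.00). With a replicate block the HC2 difference passed (range over the alternatives 0.041 to 0.408). One lc library at 4dpi, replicate 2, held 27.7 RPKM of AGL20 beside 12.5 to 13.5 in the others, and it was also the highest of its group for MBP20, FUL1, FUL2 and MBP10. Without replicate number 2 the lc difference of AGL20 was 0.04.

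FUL1, a ripening regulator in the fruit, was called in no line against WT in the fit without a replicate block. At the early stage it had 25.7, 37.5, 35.8 and 37.1 RPKM in RNAi-SlCLV3, against 39.1, 42.0, 42.9 and 33.0 RPKM in WT. At 4dpi the values were 18.8, 23.1, 23.2 and 18.7 RPKM in RNAi-SlCLV3, against 23.2, 26.5, 26.2 and 20.95 RPKM in WT. At 6dpi they were 15.2, 21.7, 19.8 and 16.2 RPKM in RNAi-SlCLV3, against 17.6, 18.1, 22.8 and 18.01 RPKM in WT. The groups overlapped at each stage, although 10 of 12 RNAi-SlCLV3 libraries lay below the WT library of their number. The difference over the stages was -0.16 (SE 0.08, 95% interval -0.32 to -0.002, adjusted p = 0.18). In the natural mutants FUL1 lay as close to WT, with differences over the stages of -0.14 in lc/fas (95% interval -0.30 to 0.02) and -0.07 in fas (-0.23 to 0.09). In the early libraries it was 32.8 to 41.6 RPKM in lc/fas, 31.9 to 40.0 in fas and 33.2 to 41.7 in lc, against 33.0 to 42.9 RPKM in WT.

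HC2 held the highest mean of FUL1 at each stage, with 37.3, 43.3, 44.3 and 38.4 RPKM at the early stage, 28.1, 31.7, 26.4 and 24.0 RPKM at 4dpi and 25.9, 31.9, 21.4 and 17.8 RPKM at 6dpi. fas, the line HC2 was made in, had 31.9, 40.0, 39.4 and 32.4 RPKM at the early stage, 20.9, 24.7, 27.2 and 19.2 RPKM at 4dpi and 18.5, 16.8, 21.2 and 19.2 RPKM at 6dpi. The HC2 and fas libraries overlapped at each stage, and 10 of 12 HC2 libraries were higher than the fas library of their number. The difference of HC2 from fas was 0.25 (SE 0.08, 95% interval 0.09 to 0.41, adjusted p = 0.057), and it passed in 4 of 14 alternatives: without the libraries under 10000000 reads (0.017), without replicate number 3 (0.031), with quantile normalization (0.044) and with a replicate block (range over the alternatives 0.0030 to 0.54). Against HC2, FUL1 fell in RNAi-SlCLV3 by 0.34 over the stages (SE 0.08, adjusted p = 0.0022), with 12 of 12 libraries below the HC2 library of their number. Without replicate number 1 this fall was 0.25 and lost the call (adjusted p = 0.104), as it did when the stages were averaged first (0.137, range over the alternatives 2.2e-05 to 0.137).

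FUL2, the other fruit-expressed paralog, was called in no contrast between lines in the fit without a replicate block. RNAi-SlCLV3 had 32.0, 47.1, 39.9 and 42.1 RPKM at the early stage, 22.1, 32.7, 25.5 and 22.3 RPKM at 4dpi and 21.4, 36.3, 34.4 and 28.7 RPKM at 6dpi. WT had 48.4, 56.0, 49.8 and 42.2 RPKM at the early stage, 20.6, 31.8, 29.2 and 20.3 RPKM at 4dpi and 25.6, 35.3, 39.3 and 33.1 RPKM at 6dpi. The groups overlapped at each stage. Early FUL2 also overlapped WT in the other lines, at 36.8 to 46.9 RPKM in lc/fas, 36.2 to 52.2 in fas, 41.4 to 64.2 in lc and 41.7 to 55.2 in HC2, against 42.2 to 56.0 RPKM in WT. In lc/fas 11 of 12 libraries were below the WT library of their stage and number. Over the stages the difference was -0.14 in RNAi-SlCLV3 (95% interval -0.35 to 0.08), -0.20 in lc/fas (-0.42 to 0.01), -0.04 in fas (-0.25 to 0.18), 0.04 in lc (-0.18 to 0.25) and 0.08 in HC2 (-0.13 to 0.30). Against HC2, RNAi-SlCLV3 differed in FUL2 by -0.22 (95% interval -0.44 to -0.005, limma adjusted p = 0.26), with 11 of 12 libraries below their counterpart. That difference passed with a replicate block (range over the alternatives 0.0085 to 0.726).

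MBP10, the closest relative of MBP20 in this set and by far its lowest gene, had 3.42, 2.93, 6.53 and 4.09 RPKM in RNAi-SlCLV3 at the early stage, against 4.69, 4.06, 4.41 and 4.01 RPKM in WT. At 4dpi it had 5.56, 9.51, 11.04 and 8.18 RPKM in RNAi-SlCLV3, against 6.66, 11.4, 12.3 and 7.44 RPKM in WT. At 6dpi it had 4.03, 11.4, 7.23 and 7.05 RPKM in RNAi-SlCLV3, against 9.05, 14.6, 11.3 and 8.81 RPKM in WT. These groups overlapped. The difference at 6dpi was -0.55 (SE 0.25, unadjusted p = 0.034 in limma, adjusted p = 0.56), with 4 of 4 libraries below the WT library of their number. In the early libraries of the other lines MBP10 was 2.87 to 4.59 RPKM in lc/fas, 1.83 to 4.76 in fas, 2.84 to 5.73 in lc and 3.94 to 7.16 in HC2, against 4.01 to 4.69 RPKM in WT. lc/fas was below the WT library of its stage and number in 11 of 12 cases and fas in 10 of 12. Over the stages the differences were -0.24 in RNAi-SlCLV3, -0.26 in lc/fas, -0.31 in fas, 0.01 in lc and -0.01 in HC2, each with an SE of 0.15 and none called. Its lowest value by depth, WT replicate 3 at the early stage, rested on 9 reads.

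Counted over the 5 genes, the hairpin line against WT gave 2 calls at each stage and over the stages, all MBP20 and AGL20 and all higher. The background was 4.58% of all genes tested at the early stage, 3.46% at 4dpi, 1.25% at 6dpi and 12.9% over the stages. The median log2 difference of the 5 genes over the stages was -0.14, beside 0.02 for all genes tested. lc/fas against WT gave 1 call, AGL20, where 1.02% of all genes were called. The other contrasts with WT gave 0 calls by limma: lc with 0 of the 5 genes below an unadjusted p of 0.05 (0.539% of all genes called), fas with 3 (0.0826% called) and HC2 with 3 (6.65% called). HC2 against fas gave 0 calls with 2 genes below an unadjusted p of 0.05, where 3.81% of all genes were called. All contrasts with WT share the 12 WT libraries.

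**Figure D2:**
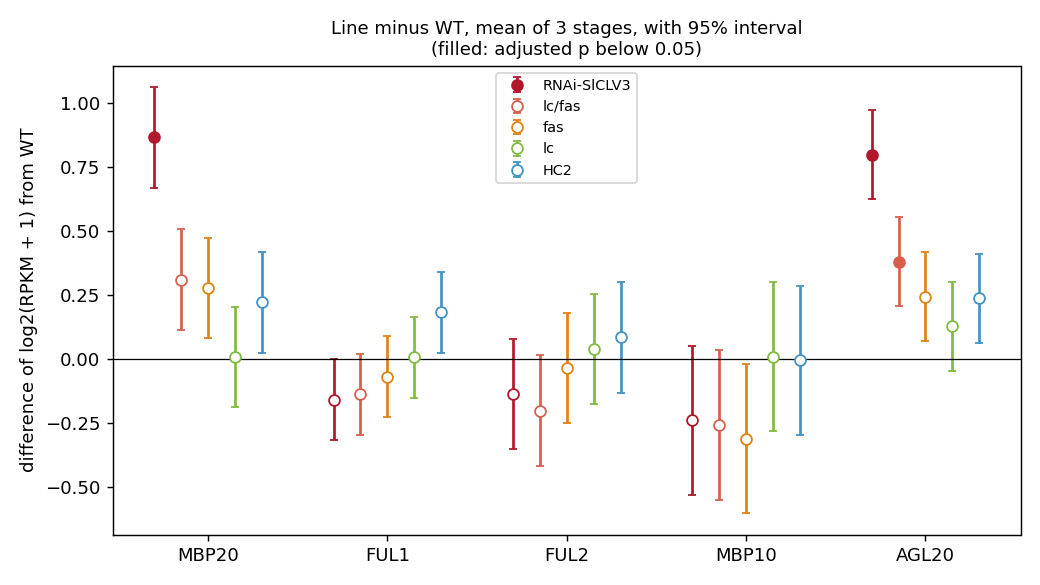
Difference of log2(RPKM + 1) from WT, mean of 3 stages, for each gene (x axis) in RNAi-SlCLV3, lc/fas, fas, lc and HC2 (colours, left to right), with 95% intervals; filled points passed at an adjusted p below 0.05. Only MBP20 in RNAi-SlCLV3 (0.86) and AGL20 in RNAi-SlCLV3 (0.80) and lc/fas (0.38) are filled.

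The hairpin line was also set directly against the natural double mutant and against the other transgenic line. Against lc/fas, RNAi-SlCLV3 was higher in MBP20 by 0.56 (SE 0.10, adjusted p = 3.2e-05; 12 of 12 libraries above their counterpart) and in AGL20 by 0.42 (SE 0.09, adjusted p = 0.00052; 11 of 12). FUL1 (-0.02), FUL2 (0.07, 95% interval -0.15 to 0.28) and MBP10 (0.02) were not called, so 2 of the 5 genes passed where 7.38% of all genes did. Against HC2, MBP20 was higher by 0.64 (SE 0.10, adjusted p = 1.7e-06) and AGL20 by 0.56 (SE 0.09, adjusted p = 2.5e-06), both in 12 of 12 libraries, and with the fall of FUL1 this made 3 of 5 calls where 7.28% of all genes were called. MBP20 and AGL20 passed both contrasts under all 14 alternatives.

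Because replicates of one number tended to be high or low together in several genes, each FRUITFULL-like gene was also expressed as a percent of the summed RPKM of MBP20, FUL1, FUL2 and MBP10 in its library. MBP20 made up 54.1% to 57.3% of that sum in RNAi-SlCLV3 at the early stage, 44.8% to 48.6% in lc/fas and 43.3% to 47.6% in fas, against 34.6% to 41.9% in WT. lc (31.1% to 38.6%) and HC2 (35.9% to 41.2%) overlapped WT. In lc/fas and fas each early library was thus above WT in share, although its RPKM overlapped WT as a group.

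At 4dpi the share of MBP20 was 42.1% to 44.8% in RNAi-SlCLV3, 32.5% to 38.7% in lc/fas and 29.9% to 35.5% in fas, against 22.6% to 26.9% in WT. At 6dpi it was 33.6% to 39.6% in RNAi-SlCLV3, 24.9% to 29.8% in lc/fas and 24.5% to 26.7% in fas, against 21.6% to 23.0% in WT. HC2 overlapped WT at 4dpi (25.2% to 34.1%) and was just above it at 6dpi (23.5% to 26.2%). The shares were computed after the values had been seen and are given as a description without a test. FUL1 and FUL2 took less of the sum in RNAi-SlCLV3, at 19.3% ± 0.878 and 22.8% ± 1.02 at the early stage, against 25.9% ± 1.50 and 32.4% ± 1.99 in WT. Because the shares divide a single sum, a larger share of MBP20 lowers those of the others. The early RPKM of FUL1 and FUL2 was not called against WT. The sum itself was 177 ± 29.9 RPKM in RNAi-SlCLV3 and 151 ± 14.8 RPKM in WT at that stage and overlapped.

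**Figure D3:**
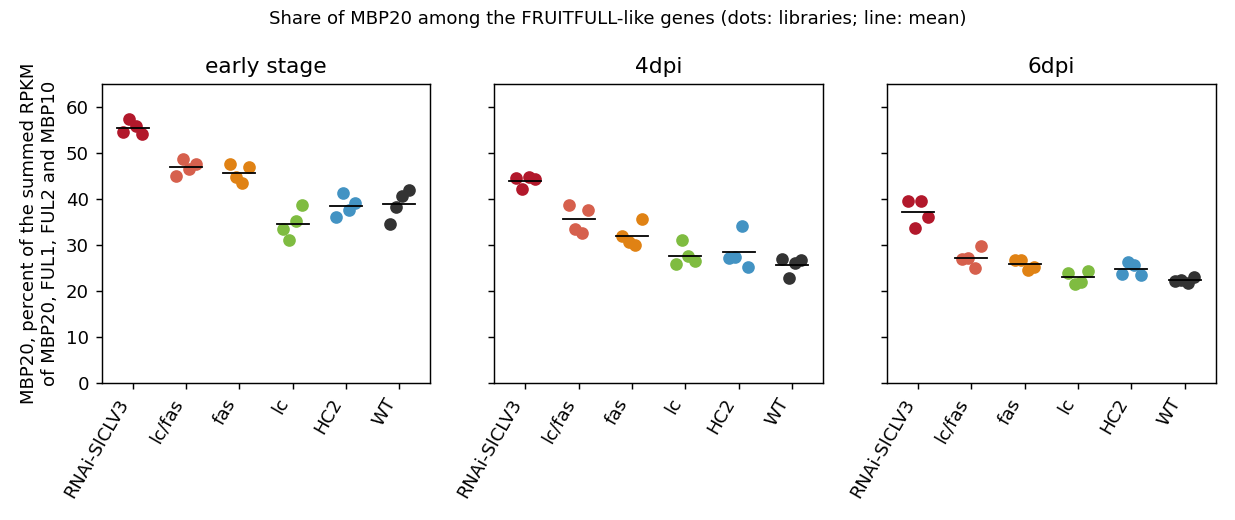
MBP20 as a percent of the summed RPKM of MBP20, FUL1, FUL2 and MBP10 in each library (dots; lines are means of 4), by stage (panels) and genotype (RNAi-SlCLV3 leftmost, WT rightmost). RNAi-SlCLV3, lc/fas and fas lie above WT in each library at each stage, with RNAi-SlCLV3 at 54.1% to 57.3% and WT at 34.6% to 41.9% at the early stage.

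Development changed 4 of the 5 genes in WT between the early stage and 4dpi, where 28.0% of all genes were called. MBP20 fell by 1.50 (SE 0.17, adjusted p = 1.4e-10), FUL2 fell by 0.94 (SE 0.19, adjusted p = 6.1e-05) and FUL1 fell by 0.67 (SE 0.14, adjusted p = 8.6e-05). MBP10 moved the other way and rose by 0.94 (SE 0.25, adjusted p = 0.0030), with 6.66 to 12.3 RPKM at 4dpi wholly above the 4.01 to 4.69 RPKM at the early stage. AGL20 differed by -0.30 (SE 0.15, adjusted p = 0.13). The call of MBP10 was lost without the libraries under 10000000 reads (0.79, adjusted p = 0.089; range over the alternatives 0.00011 to 0.089). In whole tissue, fewer cells that express a gene and less RNA of it per cell cannot be told apart.

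Every genotype took the same step in MBP20 and FUL1. The 4dpi libraries lay wholly below the early ones in 6 of 6 genotypes for both genes, with 4dpi means at 0.343 to 0.525 of the early mean for MBP20 and 0.594 to 0.680 for FUL1. FUL2 was wholly lower at 4dpi in 5 of 6 genotypes (0.491 to 0.637 of the early mean) and MBP10 wholly higher in 5 of 6 (1.83 to 2.81 times). AGL20 was wholly lower in 3 of 6 genotypes, at 0.605 to 1.19 of the early mean, and by 6dpi it was wholly below the early stage in 6 of 6.

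Between 4dpi and 6dpi in WT 0 of the 5 genes were called by limma, 2 had an unadjusted p below 0.05, and 8.10% of all genes were called. FUL1 differed by -0.33 (SE 0.14, adjusted p = 0.15) and FUL2 by 0.39 (SE 0.19, adjusted p = 0.24). Same-numbered WT libraries deviated together, and with the replicate number as a block both passed, FUL1 lower at 6dpi (adjusted p = 0.024, range over the alternatives 0.024 to 0.357) and FUL2 higher (adjusted p = 0.0072, range 0.0072 to 0.542). FUL2 was thus lowest at 4dpi in WT, at 25.4 ± 5.91 RPKM between 49.1 ± 5.66 at the early stage and 33.3 ± 5.72 at 6dpi, and its mean was lowest at 4dpi in all 6 genotypes (6dpi means at 1.18 to 1.48 times those at 4dpi).

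MBP20 and FUL2 each carry an identifier next to that of a SEPALLATA-type gene: TM29 (Solyc02g089200) adjoins MBP20 and EJ2 (Solyc03g114840) adjoins FUL2. SEPALLATA proteins are the partners with which other MADS-box factors specify floral organs. In RNAi-SlCLV3 at the early stage TM29 fell to 35.0 ± 10.99 RPKM, against 52.3 ± 10.5 RPKM in WT (log2 change -0.59; SE 0.16; limma adjusted p = 0.018). EJ2 fell to 41.8 ± 9.23 RPKM, against 61.5 ± 8.09 RPKM in WT (log2 change -0.56, SE 0.10, adjusted p = 0.00014). MBP20 rose in the same libraries, so MBP20 and TM29 moved in opposite directions, whereas FUL2 differed by -0.29 there (SE 0.19, not called), the same sign as EJ2. In WT from the early stage to 4dpi TM29 rose by 2.10 and EJ2 rose by 0.96 (SE 0.16 and 0.10, adjusted p = 3.3e-16 and 3.4e-11), while MBP20 and FUL2 fell. The libraries were strand-specific.

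**Figure D4:**
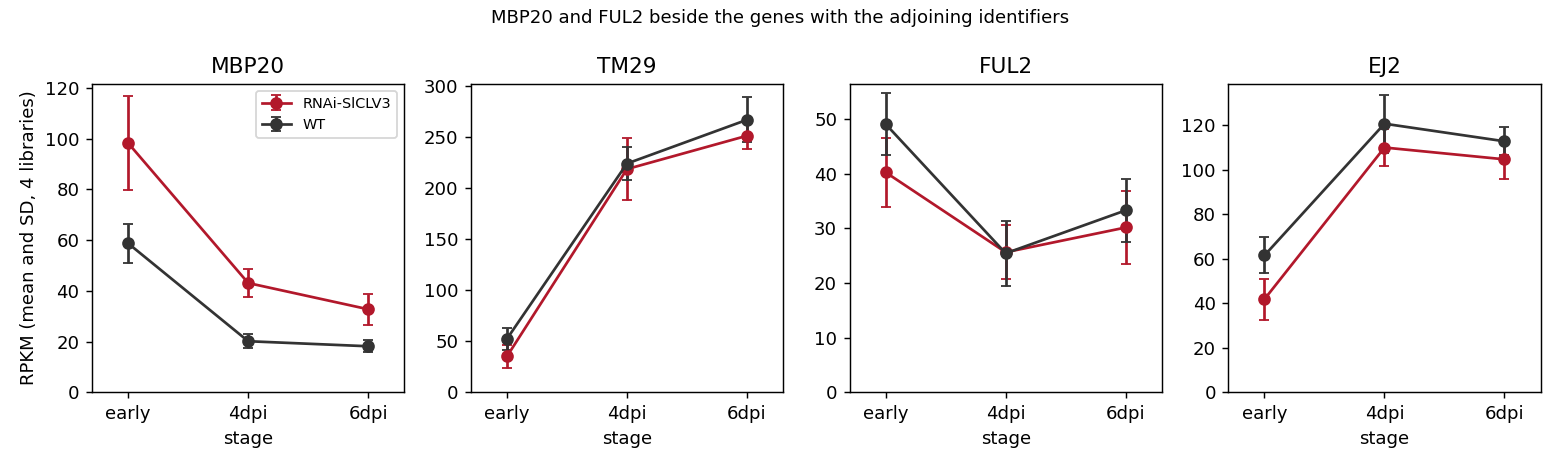
Mean RPKM with SD (4 libraries) at the early stage, 4dpi and 6dpi for MBP20, TM29, FUL2 and EJ2 in RNAi-SlCLV3 and WT. MBP20 and FUL2 were highest at the early stage, while TM29 and EJ2 were lowest there, and RNAi-SlCLV3 lay above WT for MBP20 and below WT at the early stage for TM29, EJ2 and FUL2, of which FUL2 was not called (-0.29).

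Among 9 tested genes of flowering and inflorescence identity, 1 rose and 2 fell in RNAi-SlCLV3 at the early stage, with a median log2 difference of -0.24, where 4.58% of all genes were called. SP, which keeps shoots indeterminate and delays flowering, rose by 2.78 (SE 0.45, adjusted p = 1.0e-05), at 6.57 to 13.2 RPKM in RNAi-SlCLV3, against 0 to 1.17 RPKM in WT. The early mean of SP was 19.3 RPKM in lc/fas, above that of RNAi-SlCLV3 (8.86), and 5.91 in fas, 3.42 in lc and 5.34 in HC2, whose lowest library was at 0. AN, an F-box gene of floral identity, fell by 1.17 (SE 0.15, adjusted p = 6.4e-08). Over the stages 2 of the 9 rose and 2 fell, where 12.9% of all genes were called. Of 13 tested floral organ MADS-box genes 0 rose and 4 fell at the early stage, where 4.58% of all genes were called, with a median of -0.46 beside 0.01 for all genes tested. In WT at 4dpi against the early stage 11 of these 13 rose and 1 fell (median 2.10), and 1 of the 9 flowering genes rose and 7 fell (median -0.63), where 28.0% of all genes were called and their median was -0.10.

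In RNAi-SlCLV3 the summed level of the meristem markers exceeded WT in later buds, as MBP20 and AGL20 did. At the early stage the sum overlapped WT. It includes SlCLV3, the target of the hairpin, but the early SlCLV3 levels given above are a small part of it. The early sum of both genotypes therefore rests mainly on SlWUS and TKN2. The summed RPKM of SlWUS, SlCLV3 and TKN2 was 204 to 262 in RNAi-SlCLV3 at the early stage, against 191 to 292 in WT. At 4dpi it was 124 to 140 in RNAi-SlCLV3, against 65.3 to 94.9 in WT, and at 6dpi 79.1 to 102 in RNAi-SlCLV3, against 46.3 to 57.9 in WT. SlWUS rose in RNAi-SlCLV3 by 1.48 at 4dpi and by 1.41 at 6dpi (SE 0.26 each, adjusted p = 6.8e-05 and 0.00028), and 2 of the 3 markers were called at each of these stages. The part of meristem tissue in the later differences of MBP20 and AGL20 was not tested, and at the early stage SlCLV3 alone of the 3 markers was called, lower in RNAi-SlCLV3 (-0.78, SE 0.23, adjusted p = 0.036). In lc/fas, whose AGL20 stood apart from WT at the early stage and overlapped it at 4dpi, the marker sum was 206 to 273 at the early stage, against 191 to 292 in WT, and 91.9 to 111 at 4dpi, against 65.3 to 94.9 in WT. In fas and HC2 the sum overlapped WT in later buds. Its means were 86.6 and 82.8 at 4dpi, against 80.8 in WT. At 6dpi they were 49.2 and 44.7, against 51.8 in WT, while the MBP20 means of fas and HC2 were above WT.

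The effect of the hairpin was not shown to differ between stages for any of the 5 genes. From the early stage to 4dpi the effect changed by 0.34 for MBP20 (SE 0.24), -0.38 for AGL20 (SE 0.21) and 0.31 for FUL2 (SE 0.26), with 0 calls by limma, 0 unadjusted p below 0.05 and 0.170% of all genes called. From the early stage to 6dpi it changed by -0.45 for AGL20 (SE 0.21, unadjusted p = 0.039 in limma, adjusted p = 0.74), again with 0 calls, 1 unadjusted p below 0.05 and 0.340% of all genes called. A moderated F test of genotype by stage over the 6 genotypes gave 0 calls, where 0.296% of all genes were called. AGL20 had the largest F of the 5, at 2.86 (unadjusted p = 0.0057, adjusted p = 0.61), and the other 4 had F below 1.

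Over the 18 group means the log2 levels of MBP20 and AGL20 had a Pearson correlation of 0.89, MBP20 and FUL1 of 0.81, and MBP20 and MBP10 of -0.91. These points share stages and libraries, and the values are descriptive. The weakest correlation in size was that of AGL20 and FUL2, at 0.27. The tested gene most like MBP20 was Solyc12g094660 (0.98), followed by Solyc03g025440 and Solyc07g055100 (0.97 each). FUL1 was most like Solyc08g006150 and Solyc10g078300 (0.98 each) and Solyc08g083030 (0.97). FUL2 was most like Solyc07g042550 (0.97), Solyc07g047960 and Solyc03g098070 (0.96 each), and MBP10 most like Solyc12g009440, Solyc02g083530 and Solyc04g080630 (0.97 each). For AGL20 they were Solyc00g179240 (0.96), Solyc06g068680 and Solyc06g074060 (0.94 each). Over the 72 single libraries these correlations were lower, at 0.65 to 0.89.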

How the data were processed

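Strand-specific whole mRNA libraries were sequenced by the authors as single-end reads, aligned with TopHat2 and Bowtie2 (versions not given in the sources used here) to the tomato genome with the ITAG2.3 annotation. The authors deposited RPKM values for 34727 genes, and no counts were used. Read totals were recovered from the steps of low RPKM values: 99.61% of 1087402 values under 500 reads came out whole within 0.01 reads. They served only for depth. Close paralogs can share short reads, which the RPKM values cannot resolve.

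The 20577 genes that reached 1 RPKM in 4 or more libraries were fitted as log2(RPKM + 1) with 18 group means in limma 3.58.1 (trend, two-sided) in R 4.3.3, with Benjamini-Hochberg adjustment over all genes. The fit was tested on simulated data. Tables and figures used Python 3.11.15, numpy 2.4.6, pandas 2.3.3 and matplotlib 3.10.9. The alternatives were a pseudocount of 0.1, no filter, a mean of at least 5 RPKM, median-of-ratios scaling, quantile normalization, only the groups compared, no libraries under 10000000 reads, each replicate left out, and a replicate block. Averaging the stages of a number and leaving out the 2 thinnest libraries were added after seeing the data.

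Same-numbered libraries all correlated above 0.1 (deviations from group means) for fas against WT (lowest 0.147), for both WT steps (0.223 and 0.147) and for RNAi-SlCLV3 against WT at 4dpi and 6dpi (0.184 and 0.117). The tendency was not confined to these contrasts. Against WT over the stages most pairs were above 0.1 in lc (58 of 60), lc/fas (58), RNAi-SlCLV3 (54) and HC2 (50). Their mean correlations were 0.324, 0.301, 0.275 and 0.23. Between lines at one stage, same-numbered pairs had a mean of 0.306 (165 of 180 above 0.1). Pairs of other numbers had a mean of -0.101 (67 of 540). The labels give the numbers but no shared batch.

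The genes and lists were chosen with earlier results of these data known. Named genes are the 5 genes, the 3 tested genes with the highest correlation over 18 group means (at least 2 RPKM in a group), TM29, EJ2, SlWUS, SlCLV3 and at most 2 more per list. Lists held 10 flowering, 15 floral organ MADS-box, 3 meristem, 3 primordium, 3 Rubisco and 2 tapetum genes. The summed RPKM of the Rubisco genes ranged over similar values in RNAi-SlCLV3 (618 to 1057) and WT (572 to 879) at the early stage. No sequence or gene coordinates matched to these identifiers were used here.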

Additional observations from a re-analysis of the deposited data

Results flagged for a closer look

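In 5 of the 90 sets of 4 libraries (5 genes in 18 groups) a single library stood apart from the rest of its group by the 95% critical gap; chance flags about 1 group in 20. FUL1 in RNAi-SlCLV3 at the early stage was 25.7 RPKM in replicate 1, with the others at 35.8 to 37.5. FUL1 in WT at 6dpi was 22.8 RPKM in replicate 3, with the others at 17.6 to 18.1. AGL20 in fas at the early stage was 23.9 RPKM in replicate 2 (others 19.3 to 19.9), and in lc at the early stage 15.9 RPKM in replicate 4 (others 13.3 to 13.5). AGL20 in lc at 4dpi was 27.7 RPKM in replicate 2 (others 12.5 to 13.5).

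Without the RNAi-SlCLV3 library, the early difference of FUL1 from WT was -0.08 on the log2 scale, and that of MBP20 was 0.85 (still called).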

How the results depend on the processing

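No called change turned its direction under any alternative, whereas some uncalled differences near 0 changed sign (FUL2 in RNAi-SlCLV3 against WT at 4dpi ran from -0.10 to 0.13). Of 1295 alternative values for single genes 1268 kept their side of the threshold, 12 lost a call and 15 gained one. The genotype by stage test was not run with only the groups compared, since it uses all of them. MBP20 and AGL20 over the stages in RNAi-SlCLV3 against WT passed in all 14 alternatives.

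The number of genes called out of 5 changed by over 1.5 times as follows. With the replicate block it was 1 for fas against WT, 2 for lc/fas against WT, 3 for HC2 against WT (MBP20, FUL1 and AGL20), 1 for HC2 against fas and 2 for WT 6dpi against 4dpi. The block also gave calls for FUL1, lower in RNAi-SlCLV3 than in WT, and FUL2, lower in RNAi-SlCLV3 than in HC2; it changed no other call. Over all genes it called 60 for fas against WT, 454 for lc/fas, 2776 for HC2, 1466 for HC2 against fas and 2645 for WT 6dpi against 4dpi, where the fit without it called 17, 210, 1368, 784 and 1666. With quantile normalization it was 1 for HC2 against fas (FUL1) and 1 for WT 6dpi against 4dpi (FUL1). With only the groups compared it was 1 for RNAi-SlCLV3 against WT at the early stage, 1 at 4dpi and 2 for lc/fas against WT, with 255 of all genes called at each of those stages where 943 and 712 were called otherwise. Without libraries under 10000000 reads it was 1 for RNAi-SlCLV3 against WT at 6dpi and 1 for HC2 against fas. With stages averaged it was 0 for lc/fas against WT. Leaving out replicates gave 0 to 1 for lc/fas against WT, 0 to 1 for HC2 against fas and 1 to 2 for RNAi-SlCLV3 against WT at 6dpi. Smaller changes were 3 of 5 for WT 4dpi against early without libraries under 10000000 reads, 2 for RNAi-SlCLV3 against HC2 without replicate number 1 and with stages averaged, and with the block 4 for that contrast and 3 for RNAi-SlCLV3 against WT over the stages. The cause of these changes was not tested.

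Depth limits MBP10 most, with a median of 83 reads a library.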
